A study of Mus musculus with 2 samples.

Results

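The genes described here are 35 members of the unfolded protein response and the integrated stress response, taken by gene symbol from a fixed list. Every probe set that names 1 of these genes alone was used, which gave 85 probe sets for all 35 genes, of 34945 usable probe sets for 18193 genes on the array. The members were placed in 5 groups by role: 14 endoplasmic reticulum (ER) chaperones and folding enzymes, 3 genes of ER-associated degradation, 4 sensors and kinases, 7 transcription factors and 7 Atf4-type targets. Total RNA came from mouse embryonic stem (ES) cells of strain C57BL/6, derived from embryos at 3.5 days post coitum and used at passage 15 to 18. One culture was labelled MOF +/+ (wild type) and the other MOF-/- (Mof null), where Mof is the histone H4 acetyltransferase encoded by Kat8. Both lines had been kept on mouse embryonic fibroblast feeders with LIF, the cytokine that holds ES cells undifferentiated, and were grown for 2 passages without feeders before RNA was taken. The labels do not say how many clones the null line stands for. Each culture was hybridised to 1 array, so no value below has a replicate error, no difference was tested, and genotype cannot be told apart from culture or array.

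The unfolded protein response begins at the ER membrane, where the sensors Ire1 (gene Ern1), Perk (Eif2ak3) and Atf6 respond to misfolded protein. Atf6 and spliced Xbp1 switch on chaperone and degradation genes through ER stress response elements, while Perk and the amino acid sensor Gcn2 (Eif2ak4) phosphorylate the initiation factor eIF2, which lowers general translation and raises translation of Atf4. Atf4 binds composite C/EBP-ATF elements and switches on genes of amino acid supply together with feedback and cell death genes such as Ddit3 and Trib3. Most of this control acts on protein, splicing or phosphorylation, which an array of transcript levels does not read. The embryonic fibroblast, a cell type these cultures had been grown on, is a secretory cell with abundant ER.

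Promoter sequences are printed for the members that held an element of either branch, since these are the sites through which the chaperone and Atf4-type genes are known to be switched on. The 250 bases before each RefSeq start site (build GRCm38.p6) were searched on both strands for 3 elements, with windows found for 32 of the 35 members. The ER stress response element, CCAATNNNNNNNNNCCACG, was matched in 37 of all 32851 windows (0.113%), and among members it was matched in 7 of the 12 chaperone genes with a window and in none of the other groups. The 8 member sites follow, each read along the element with 10 flanking bases and with the letters fixed by the element in capitals; Hsp90b1 has a pair of sites.
Hspa5 (chr2:34772015-34772053, plus strand): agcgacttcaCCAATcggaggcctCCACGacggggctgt
Calr (chr8:84847065-84847103, plus strand): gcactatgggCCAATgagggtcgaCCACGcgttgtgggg
Hsp90b1 (chr10:86705628-86705666, minus strand): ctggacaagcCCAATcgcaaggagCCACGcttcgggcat
Hsp90b1 (chr10:86705523-86705561, plus strand): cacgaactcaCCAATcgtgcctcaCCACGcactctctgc
Canx (chr11:50325790-50325828, minus strand): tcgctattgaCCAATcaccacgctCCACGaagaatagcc
Pdia6 (chr12:17266481-17266519, plus strand): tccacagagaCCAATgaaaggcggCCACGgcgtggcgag
Dnajc3 (chr14:118937817-118937855, plus strand): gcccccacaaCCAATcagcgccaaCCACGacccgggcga
Creld2 (chr15:88819510-88819548, minus strand): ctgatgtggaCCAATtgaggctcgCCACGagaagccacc
The shorter second form of the element, ATTGGNCCACG, was matched in 10 windows (0.0304%), and its only match among members was in Herpud1. The C/EBP-ATF element, searched as TGATGNAA, is short and was matched in 1134 windows (3.45%). It was matched in 5 members, namely 3 of the 7 Atf4-type targets, Nupr1 and Herpud1, so Herpud1 holds an element of each branch. These sites are shown in the same way.
Chac1 (chr2:119351039-119351066, minus strand): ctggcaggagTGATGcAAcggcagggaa
Asns (chr6:7693215-7693242, minus strand): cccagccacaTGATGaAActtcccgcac
Nupr1 (chr7:126625563-126625590, plus strand): aagccctgtcTGATGcAAtctggccctt
Herpud1 (chr8:94386307-94386334, minus strand): gggtgcgggcTGATGcAAcccgccgtgg
Vldlr (chr19:27216810-27216837, minus strand): ctaggagcgcTGATGcAActattgctgc
None of the matched elements overlapped another in a member window. Whole windows of 3 genes show the layout, 1 with only the long ER stress element (Creld2), 1 with both the short ER stress element and the C/EBP-ATF element (Herpud1) and 1 with only the C/EBP-ATF element (Asns). They are printed along the gene, ending at the base before the start site, so an element that lies on the opposite strand is read there as its reverse complement, with its fixed letters in capitals.
Creld2 (chr15:88819396-88819645, plus strand): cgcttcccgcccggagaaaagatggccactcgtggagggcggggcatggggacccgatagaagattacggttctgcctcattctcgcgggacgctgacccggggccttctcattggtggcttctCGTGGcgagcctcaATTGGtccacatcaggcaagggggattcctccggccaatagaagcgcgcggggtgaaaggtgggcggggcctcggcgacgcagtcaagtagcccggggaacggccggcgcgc
Herpud1 (chr8:94386179-94386428, plus strand): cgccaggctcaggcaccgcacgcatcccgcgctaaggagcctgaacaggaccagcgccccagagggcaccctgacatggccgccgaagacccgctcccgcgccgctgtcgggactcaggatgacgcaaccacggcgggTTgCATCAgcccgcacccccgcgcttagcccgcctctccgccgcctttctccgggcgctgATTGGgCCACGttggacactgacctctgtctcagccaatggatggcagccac
Asns (chr6:7693210-7693459, minus strand): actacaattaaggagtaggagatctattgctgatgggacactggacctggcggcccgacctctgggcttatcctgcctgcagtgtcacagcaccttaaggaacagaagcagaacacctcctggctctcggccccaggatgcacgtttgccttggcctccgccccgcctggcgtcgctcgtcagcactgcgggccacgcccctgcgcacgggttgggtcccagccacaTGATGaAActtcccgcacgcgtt
In the Creld2 window the element lies 108 to 126 bases before the start site, in Hspa5 47 to 65 bases before it, and in Asns the C/EBP-ATF element lies 16 to 23 bases before it. A match is a string of letters and does not show binding, and a window without a match says only that these letters are not in it.

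The values are log2 values, so a difference of 1 is 2-fold, and each difference is the value on the Mof null array minus that on the wild-type array. A gene took the value of its brightest probe set, and it counted as expressed if either array put it at 6.02 or more, the midpoint of all values in the table; 12015 genes did. All 35 members were expressed, and on their brightest probe sets all lay above this level on both arrays, from 6.99 to 13.57 on the wild-type array and from 8.35 to 13.74 on the Mof null array. Kat8 itself read 8.06 and 8.37 on its only probe set. Whether that probe set lies in the deleted part is not stated in the labels, so the reading does not check them. All 12 pluripotent cell markers lay above the level filter on both arrays and were higher on the Mof null array, with a median difference of 0.68. All 15 fibroblast markers measured were at least 2-fold lower on the Mof null array, with differences from -2.92 to -1.20 and a summed linear level 0.312 times that of the wild-type array. None of them was below the level filter on either array. Of 15 macrophage markers 14 were expressed, all lower on the Mof null array, 13 of them at least 2-fold, with a summed linear level 0.294 times that of the wild-type array; 1 was below the filter on the wild-type array and 3 on the Mof null array. The part of these marker shifts in the differences below was not tested, and in such bulk samples fewer cells of a type and less RNA per cell cannot be told apart.

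Most stress response genes were close to level on the arrays. On the brightest probe set 19 of the 35 members were higher and 16 lower on the Mof null array, with a median difference of 0.05 (SD over genes 0.51), against 0.10 for all expressed genes, of which 56.7% were higher. At least 1.5-fold higher were 3 members (Stc2, Sdf2l1 and Creld2), where 17.3% of all expressed genes were, and at least 1.5-fold lower were 2 members (Cebpb and Atf5), where 19.2% of all expressed genes were. The 1.5-fold line is a difference of 0.58, and 30 members lay within it, 85.7% of the members against 63.5% of all expressed genes, of which the other 36.5% were past it in either direction. These shares are not matched for level, since 1 member but 4110 of all expressed genes had a mean level under 8. In that class the 1 member and 42.3% of genes were past 1.5-fold. From 8 to 10, 2 of 14 members were past it against 37.8% of genes. From 10 to 12 it was 2 of 12 members against 29.7%, and at 12 or more 0 of 8 against 16.8%. At 2-fold, Stc2 was the only member higher (5.09% of all expressed genes) and Cebpb and Atf5 were lower (11.9%), 3 members in all where 17.0% of all expressed genes were past 2-fold in either direction. The only available yardstick of error is the spread between probe sets of the same gene, which had a pooled SD of 0.33 over 5362 genes and of 0.24 over the 23 members with several expressed probe sets. By size, 21 members differed by less than 0.33 and 14 by more. The spread between probe sets holds no variation between cultures. Measured against the median of the pluripotent cell markers, a yardstick added after the values were seen that takes 0.68 off each gene alike, 3 members were higher and 32 lower, and of all expressed genes 1605 were higher and 10410 lower. That count follows from the subtraction and is no reading of the members' own direction. Directions below are those on the deposited scale.

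**Figure D1:**
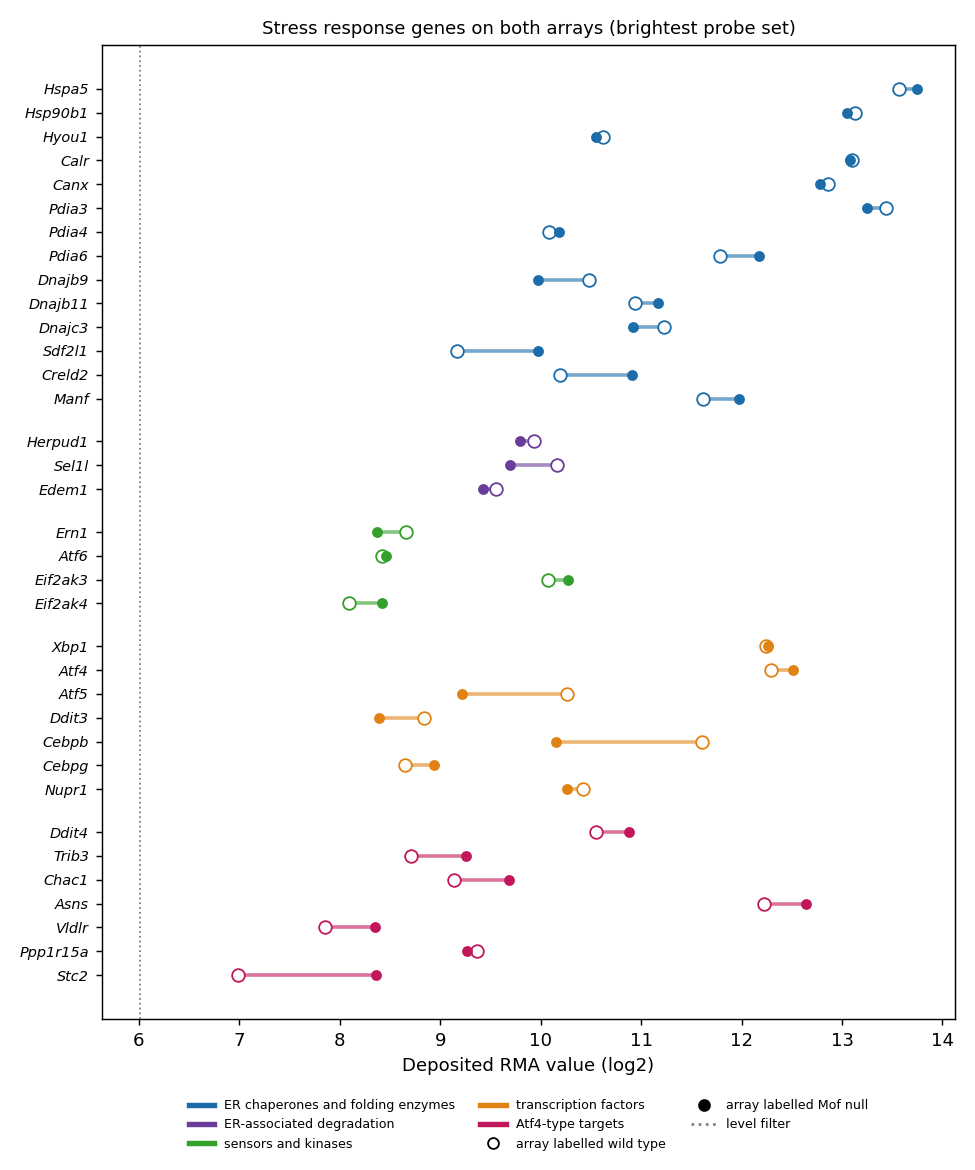
Deposited RMA values (log2, horizontal axis) of the 35 member genes on the wild-type array (open circles) and the Mof null array (filled circles), by brightest probe set and coloured by role; the dotted line is the level filter at 6.02. Chaperone pairs mostly overlap or lie close together, while Cebpb (11.61 and 10.15), Atf5 (10.26 and 9.22) and Stc2 (6.99 and 8.36) are the widest pairs.

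**Figure D2:**
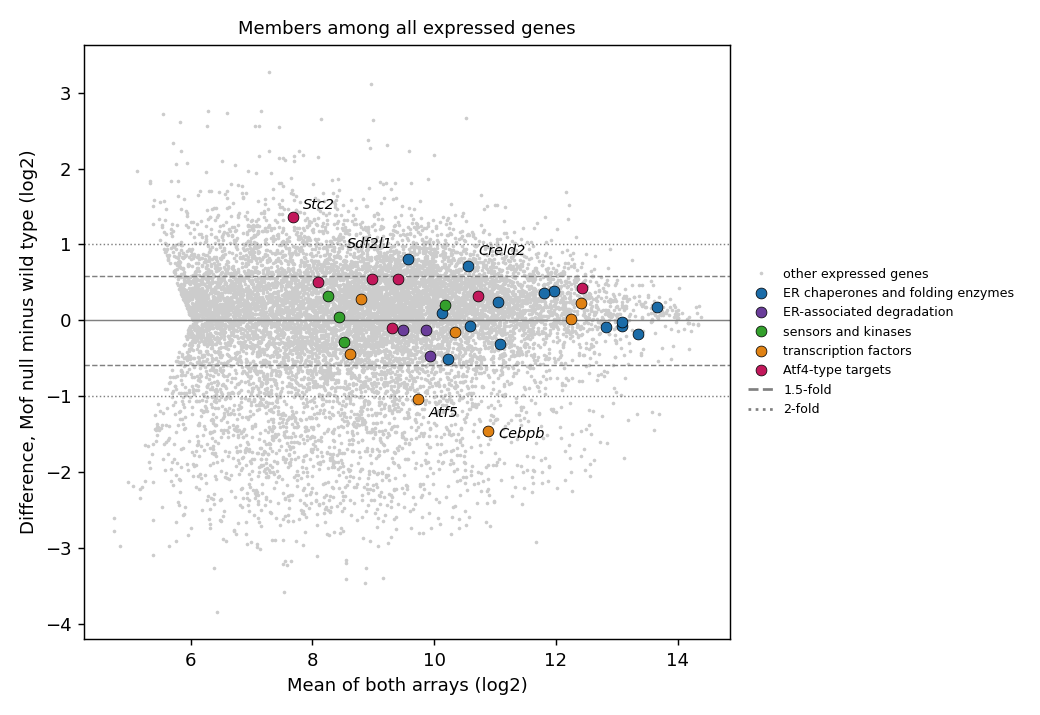
Difference (Mof null minus wild type, log2) against the mean of both arrays (log2) for all 12015 expressed genes (grey) and the 35 members (coloured by role), with dashed lines at 1.5-fold and dotted lines at 2-fold. Of the members, 3 lie above the upper dashed line and 2 below the lower one.

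The classical ER chaperones differed little between the arrays. Hspa5 (BiP), the ER Hsp70 that also holds the sensors inactive, read 13.57 on the wild-type array and 13.74 on the Mof null array, a difference of 0.18, and its other probe sets gave 0.20 and 0.22. All 3 of its probe sets were thus slightly higher on the Mof null array and close to each other. Hsp90b1 (Grp94), the ER Hsp90, read 13.13 and 13.05 (-0.08), with 0.09 on a second probe set. Hyou1, an Hsp70-like exchange factor of BiP, read 10.62 and 10.55 (-0.07), and its second expressed probe set gave -0.27. For neither gene did the arrays separate by more than the spread between probe sets. The lectin chaperones calreticulin (Calr) and calnexin (Canx), which hold newly made glycoproteins, were as level: Calr read 13.10 and 13.08 with 3 probe sets from -0.03 to -0.02, and Canx read 12.86 and 12.78 with 3 probe sets from -0.21 to 0.20.

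The protein disulfide isomerases, which form and rearrange disulfide bonds, did not share a direction. Pdia3, the partner of calreticulin and calnexin, read 13.44 and 13.25 (-0.19, and -0.36 on a second probe set). Pdia4 read 10.08 and 10.18 (0.10). Pdia6 was the isomerase gene with the largest difference, at 11.78 and 12.17 (0.39, or 1.31-fold). Its second probe set read 5.29 and 6.04, below the level filter on the wild-type array and just above it on the Mof null array, so its direction is not used. Both Pdia3 probe sets were lower on the Mof null array.

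The J-domain cochaperones, which feed substrates to BiP, also split. Dnajb11 read 10.93 and 11.17 (0.24). Dnajb9 (ERdj4), which restrains the sensor Ire1, read 10.48 and 9.97, a difference of -0.51 or 1.42-fold lower, the largest negative difference in the chaperone group. Dnajc3 (p58IPK), an ER cochaperone first described as an inhibitor of eIF2 kinases, read 11.23 and 10.92 (-0.31), but its 4 expressed probe sets ran from -0.31 to 0.29. Dnajb11 and Dnajb9 were each read by a single probe set.

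Sdf2l1 and Creld2, small ER proteins that are strongly induced by ER stress, had the largest positive differences in the chaperone group. Sdf2l1 (Entrez gene 64136) is a BiP cofactor and read 9.17 and 9.98, a difference of 0.81 or 1.75-fold, and 9.26% of all expressed genes had a larger positive difference. Creld2 (Entrez gene 76737), which has disulfide isomerase-like activity, read 10.19 and 10.91, a difference of 0.72 or 1.64-fold, with 11.96% of expressed genes above it; it was 0.57, inside the 1.5-fold line, after correction of the trend with level. Manf, a secreted ER-resident factor, read 11.62 and 11.98 (0.36, or 1.28-fold). Each of these genes had 1 probe set, so no second reading was to hand. On the scale set by the pluripotent cell markers the differences of Sdf2l1 and Creld2 were 0.13 and 0.04.

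Together, 7 of the 14 chaperone and folding genes were higher and 7 lower on the Mof null array, with a median of 0.04 (SD over genes 0.37, range -0.51 to 0.81). That median was -0.07 after centring on the median expressed gene and after the trend correction, and -0.02 without Sdf2l1. The group thus has no settled direction. The median relative to the pluripotent cell markers was -0.64, which follows from taking 0.68 off each gene alike. Of the group 2 genes were past 1.5-fold higher (17.3% of all expressed genes) and none past it lower (19.2%). The summed linear level of the 14 genes on the Mof null array was 1.03 times that on the wild-type array. Brighter genes differ less on these arrays: the SD of the difference over all expressed genes was 0.91 for mean levels under 8, 0.80 from 8 to 10, 0.68 from 10 to 12 and 0.53 at 12 or more, and 5 of the 14 chaperone genes lay in the brightest class, where 16.8% of all genes were past 1.5-fold. Of the others, 8 lay from 10 to 12 (29.7% past it) and 1 from 8 to 10 (37.8%), each share in either direction.

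**Figure D3:**
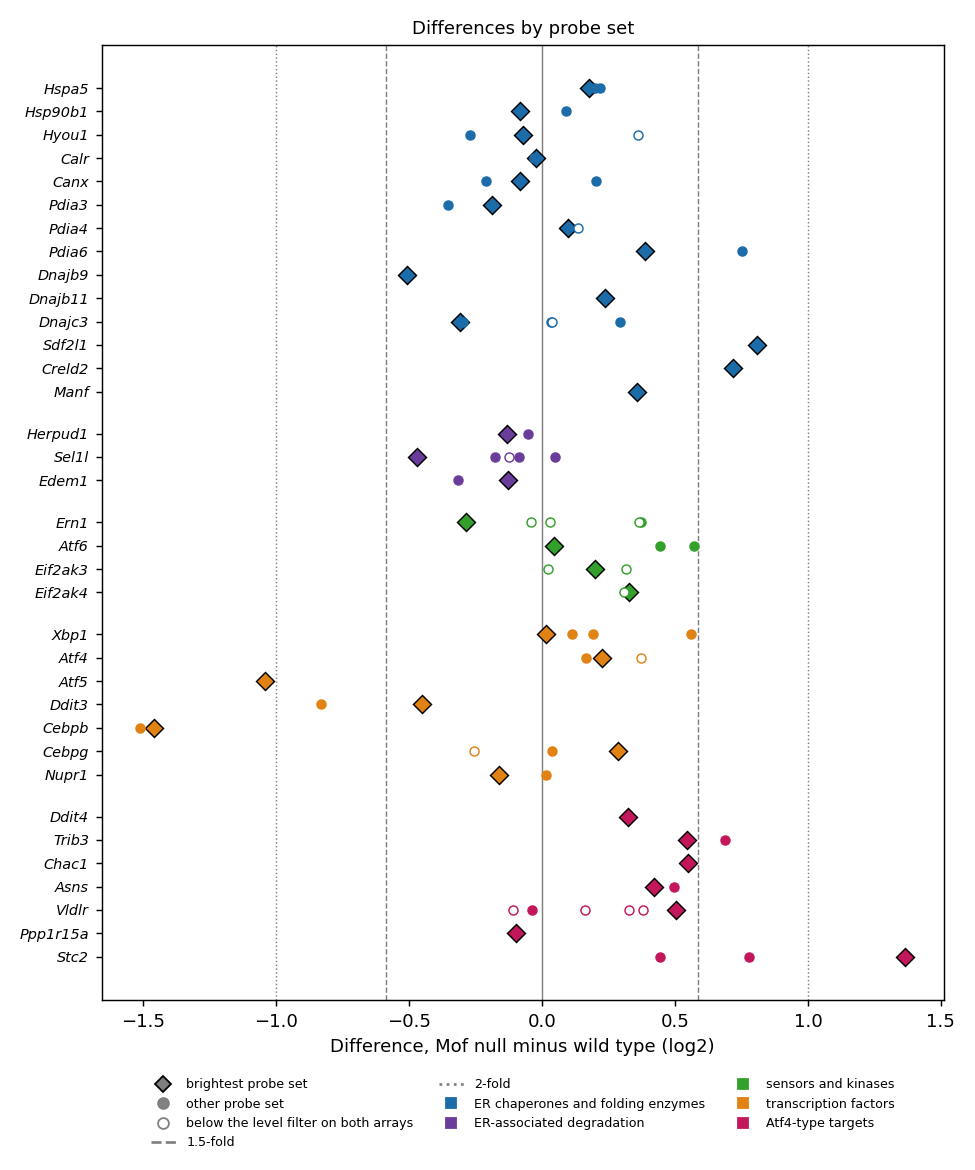
Difference (Mof null minus wild type, log2, horizontal axis) of each of the 85 member probe sets by gene; diamonds are the brightest probe set, filled circles other probe sets, open circles probe sets below the level filter on both arrays, and dashed and dotted lines mark 1.5-fold and 2-fold. The Cebpb probe sets lie together at -1.51 and -1.46, the 3 Stc2 probe sets spread from 0.44 to 1.37, and the probe sets of Canx, Dnajc3 and Ern1 lie on both sides of 0.

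The ER-associated degradation genes, whose products carry misfolded proteins back to the cytosol, were all slightly lower on the Mof null array. Sel1l, the adaptor of the Hrd1 ubiquitin ligase, read 10.17 and 9.70 (-0.47, or 1.39-fold lower), while its 4 expressed probe sets ran from -0.47 to 0.05. Herpud1, a membrane component of the same ligase and the member whose promoter holds the short ER stress element printed above, read 9.93 and 9.80 (-0.13). Edem1, which acts on the glycans of misfolded proteins, read 9.56 and 9.43 (-0.13), and its second probe set gave -0.32. None of the 3 genes was past 1.5-fold, where 36.5% of all expressed genes were in either direction, and their median was -0.13. The fibroblast and macrophage marker lists were lower on the same array, and their part in these small differences was not tested.

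On their brightest probe sets the sensor and kinase transcripts differed by at most 0.33 in size. Ern1, which splices Xbp1 messenger RNA, read 8.66 and 8.37 (-0.29), but its second expressed probe set gave 0.37. Atf6, the membrane-bound factor that is cut in the Golgi, read 8.42 and 8.47 (0.05), with 0.45 and 0.57 on its other probe sets. The arrays therefore gave no common direction for Ern1 and a size for Atf6 that depends on the probe set. Eif2ak3 (Perk) read 10.07 and 10.27 (0.20), and Eif2ak4 (Gcn2), which senses uncharged tRNA, read 8.09 and 8.42 (0.33, or 1.25-fold). Each kinase had 1 expressed probe set. The median of the 4 genes was 0.12, and -0.56 relative to the pluripotent cell markers.

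The transcription factors held both members that were past 2-fold lower. Cebpb (Entrez gene 12608), a bZIP factor that pairs with Atf4 and is abundant in mesenchymal and myeloid cells, read 11.61 on the wild-type array and 10.15 on the Mof null array, a difference of -1.46 or 2.75-fold lower. Its second probe set read 9.88 and 8.37 (-1.51), so both probe sets put the Mof null array lower by nearly the same amount. Of all expressed genes, 7.12% had a larger negative difference. Atf5 (Entrez gene 107503), a close relative of Atf4 that is translated in the same way under stress, read 10.26 and 9.22 on its only probe set, a difference of -1.04 or 2.06-fold lower, with 11.4% of expressed genes below it. With other probe set rules, level filters and scalings, leaving aside the pluripotent cell yardstick, Cebpb lay between -1.60 and -1.46 and Atf5 between -1.18 and -1.04. On the same arrays the fibroblast markers had a median of -1.93 and the macrophage markers one of -2.0, and their part in both differences was not tested.

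Ddit3 (Chop), the factor linked to cell death after prolonged stress, was also lower, at 8.84 and 8.39 (-0.45, or 1.37-fold), and a second probe set that read 7.60 and 6.76 gave -0.83. The central factors were close to level. Atf4 read 12.29 and 12.52 (0.22, and 0.17 on its other expressed probe set), and Xbp1 read 12.24 and 12.26 (0.02), with its other 3 probe sets from 0.11 to 0.56. The Xbp1 probe sets are not assigned here to the spliced or unspliced form. Cebpg, a C/EBP without an activation domain that dimerises with Atf4, read 8.65 and 8.94 (0.29), and its other expressed probe set gave 0.04. Nupr1, a small stress-induced chromatin protein, read 10.42 and 10.26 (-0.16, and 0.02 on a second probe set). The group of 7 had 3 genes higher (56.7% of all expressed genes) and 4 lower, and a median of -0.16. Past 1.5-fold lower were 2 of the 7, where 19.2% of all expressed genes were.

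The Atf4-type targets were the member group with the highest median. Of these 7 genes 6 were higher on the Mof null array, where 56.7% of all expressed genes were. Past 1.5-fold higher was 1 of the 7, where 17.3% of all expressed genes were. The count holds for this grouping by role only. Ddit3, which Atf4 also switches on, was placed with the transcription factors and was lower (-0.45). The median of the 7 was 0.50 (SD over genes 0.44) against 0.10 for all expressed genes. The median was 0.40 after centring, 0.43 after the trend correction and 0.56 after quantile normalization, but -0.18 relative to the pluripotent cell markers, whose own median of 0.68 was higher. Stc2 (Entrez gene 20856), a secreted glycoprotein induced by Atf4, read 6.99 on the wild-type array and 8.36 on the Mof null array, a difference of 1.37 or 2.58-fold, with 1.5% of expressed genes above it. Stc2 was the only member with a mean level under 8, a class where 23.0% of genes were past 2-fold in either direction. Its dimmer probe sets read 6.42 and 7.20 (0.78) and 6.23 and 6.67 (0.44), so all 3 were higher on the Mof null array while their sizes differed, and the mean of the 3 was 0.86.

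Below Stc2 the genes of the Atf4-type target group lay close together, between 0.32 and 0.55, except for Ppp1r15a. Asns, the asparagine synthetase gene whose promoter element is printed above, read 12.22 and 12.64 (0.42, or 1.34-fold), and 0.50 on a second probe set. Trib3, a pseudokinase that represses Atf4 and Ddit3 activity, read 8.71 and 9.25 (0.55), and 0.69 on a second probe set. Chac1, which degrades glutathione, read 9.13 and 9.68 (0.55, or 1.46-fold), just inside the 1.5-fold line. Both probe sets of Asns and of Trib3 were higher on the Mof null array. Ddit4 (Redd1), an inhibitor of mTORC1 that hypoxia also induces, read 10.56 and 10.88 (0.32). Vldlr, the very low density lipoprotein receptor, read 7.85 and 8.35 (0.50) on a probe set of the kind that can match several genes, but its other expressed probe set read 7.08 and 7.05 (-0.04), so its direction depends on the probe set. Ppp1r15a (Gadd34), the phosphatase subunit that removes the eIF2 phosphate, read 9.36 and 9.26 (-0.10) and was the only gene of this group that was lower.

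A wider list of Atf4-type targets, chosen with earlier results of these data known, was also mostly higher. It is therefore no independent check of the member group. Of 30 expressed genes, 27 were higher and 3 lower, 8 past 1.5-fold higher and 2 past it lower, where of all expressed genes 56.7% were higher, 17.3% past 1.5-fold higher and 19.2% past it lower. The list median was 0.46 (0.35 to 0.46 under centring, trend correction and quantile normalization, and -0.22 relative to the pluripotent cell markers, where 8 were higher). The largest positive differences were those of Gpt2, a mitochondrial alanine transaminase (8.66 and 9.66, 2.004-fold), and Mthfd2, a mitochondrial folate enzyme (10.89 and 11.77, 1.84-fold). The 3 lower genes were the bZIP factors Jdp2 (9.66 and 8.85, -0.81) and Atf3 (8.10 and 7.35, -0.75) and the stress-induced gene Sesn2 (-0.56); Sesn2 was named after its value was seen. Sorted by kind of gene after the values were seen, all 9 enzymes of amino acid and one-carbon metabolism were higher (median 0.77), as were all 6 expressed amino acid transporters (median 0.59) and all 8 tRNA synthetases (median 0.30), while the remaining 7 genes had 4 higher and 3 lower.

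The other lists of the pathway did not share that direction. Of 21 further ER folding genes 11 were higher and 10 lower, with a median of 0.02 that was -0.09 after centring; the oxidase gene Ero1a, which is also a hypoxia target, read 9.99 and 10.88 (1.85-fold), Fkbp2 9.65 and 10.32 (1.60-fold), Dnajc1 9.14 and 8.39 (-0.75) and the signal peptidase gene Spcs1 12.37 and 11.80 (-0.57). Of 18 further degradation genes 16 were lower and 2 higher, where 5168 of all 12015 expressed genes were lower. Their median was -0.29 and was negative under each scaling tried. Past 1.5-fold lower were 3 of the 18 (19.2% of all expressed genes) and past it higher 2 (17.3%), shares no larger than those of all genes. Ube2j1, the ER-anchored ubiquitin-conjugating enzyme gene, read 10.14 and 8.14, 3.999-fold lower, and the lectin gene Os9 read 9.70 and 8.77 (-0.93). The 2 higher genes were Derl3 (7.23 and 8.20, 1.96-fold) and Edem2 (8.48 and 9.23, 1.68-fold). Together with Sel1l, Herpud1 and Edem1, 19 of 21 degradation genes were on the lower side. Among the 19, Edem3 (-0.003), Herpud2 (-0.010) and Nploc4 (-0.011) lay next to 0, and Sel1l had probe sets on both sides of 0. Edem3, Herpud2 and Nploc4 were named after their values were seen.

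Of 20 expressed regulators of stress kinases and of ER-bound factors 11 were higher and 9 lower, with a median of 0.05 that was -0.05 after centring. None was past 1.5-fold higher (17.3% of all expressed genes) and 6 of the 20 were past it lower (19.2% of all expressed genes). The ER-bound factor genes Creb3l1, a regulator of collagen secretion in bone and fibroblasts, and Creb3 read 9.53 and 7.80 (3.31-fold lower) and 10.46 and 9.10 (2.57-fold lower). Genes of eIF2B, the exchange factor that eIF2 phosphorylation blocks, led the higher side, with Eif2b3 at 10.10 and 10.63 (0.53) and Eif2b5 at 10.58 and 11.09 (0.51). The cytosolic heat shock genes, a protein-folding response run by another factor, had 14 of 18 higher, where 56.7% of all expressed genes were. Their median was 0.11, close to the 0.10 of all expressed genes. After centring 10 were higher and 8 lower, with a median of 0.005. Past 2-fold lower were 4 of them (11.9% of all expressed genes), led by Cryab (10.74 and 8.995, 3.35-fold lower) and Bag3 (10.02 and 8.61, 2.65-fold lower). The highest were Fkbp4 (1.97-fold) and Stip1 (1.51-fold). No chaperone member of the ER was past 2-fold in either direction. The difference between these lists was not tested.

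**Figure D4:**
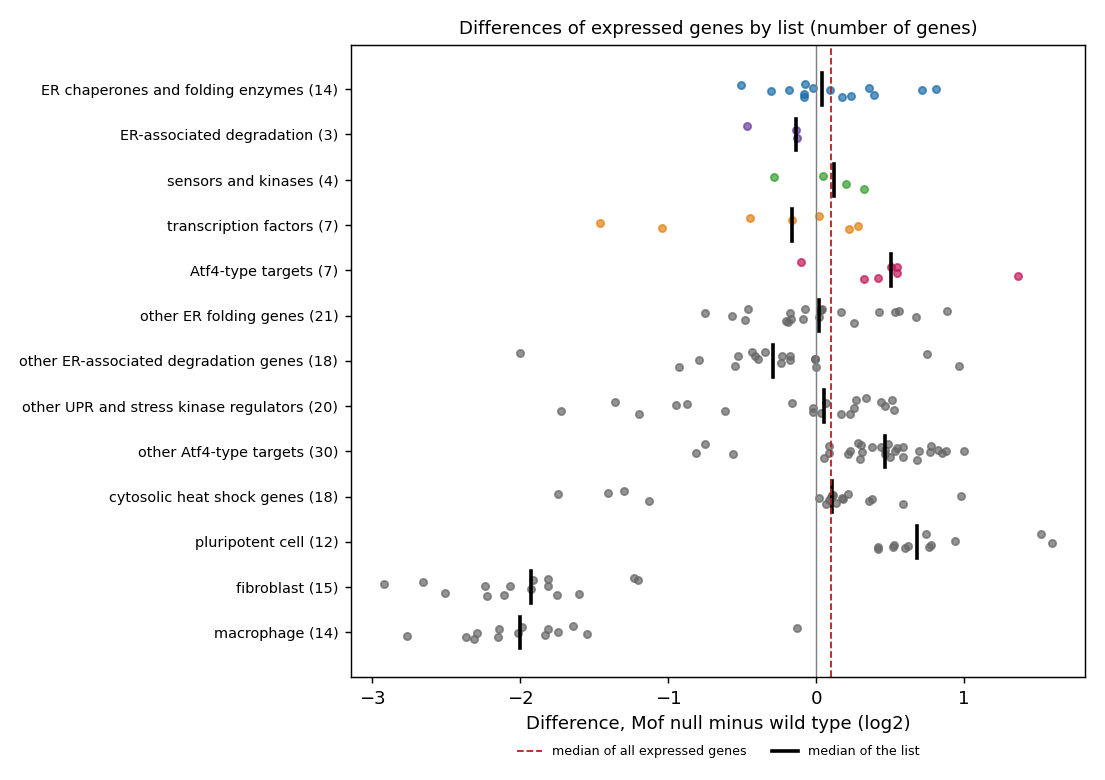
Differences (Mof null minus wild type, log2, horizontal axis) of the expressed genes of each list (points, with random vertical offset), the list medians (black bars) and the median of all expressed genes (dashed line at 0.10); numbers of genes are in parentheses. The member group of Atf4-type targets and the wider target list have medians of 0.50 and 0.46, the chaperone groups lie around 0, and the fibroblast and macrophage lists lie near -2.

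Chaperone genes with the long ER stress element lay on both sides of 0. Of the 7 members with the long ER stress element 3 were higher and 4 lower, with a median of -0.02, and Creld2 was the only one past 1.5-fold. Sdf2l1, with the largest difference in the chaperone group, had no match in its window. Outside the members, 9 expressed genes had the long element, 7 of them higher (56.7% of all expressed genes) and 4 past 1.5-fold higher (17.3%), with a median of 0.53; the genes are few, and this was not tested. Among these, Derl3 was higher by 1.96-fold, and Alg12, a glycosylation enzyme gene, read 7.65 and 8.30 (1.57-fold). Derl3, Alg12 and Acacb (7.03 and 7.84, 1.75-fold) had mean levels under 8. In that class 42.3% of all expressed genes were past 1.5-fold in either direction. The Alg12 match is the same stretch of DNA as the Creld2 site printed above, read in the window of a gene that starts on the other side of it, and both genes were higher on the Mof null array. Syvn1, the Hrd1 ligase gene, also had the element and read 9.47 and 9.29 (-0.17). Alg12, Acacb and Syvn1 were named after their values were seen. Of the 5 members with a C/EBP-ATF match 3 were higher and 2 lower, with a median of 0.42, while the 220 expressed genes outside the members with that short match had a median of 0.11, close to that of all expressed genes.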

How the data were processed

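The deposited table holds 45101 probe sets and, for each array, a log2 value. Per the submitters' processing notes the authors used RMA (R 2.10.0, package affy). That the scale is log2 was read from the range of values, 2.77 to 14.7. The sources used here do not say whether further arrays shared the RMA run. Quantile normalization within RMA hides shifts shared by most transcripts.

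Probe sets were named through the supplied platform annotation, and those with 1 symbol and 1 Entrez ID were kept; 932 with several symbols and 9211 not listed there were left out. The Entrez IDs of all 35 members were found in RefSeq (GRCm38.p6), which also gave the promoters. A gene took its brightest probe set by the mean of both arrays, and expressed meant the higher value reached percentile 50 of all values. With 1 array per group nothing was tested, and precision is limited by the number of arrays. Genes were counted by size at 1.5-fold and 2-fold. Named genes are all members and, of each other list, the expressed genes with the largest differences, at most 2 in each direction; exceptions are stated. Members and lists were chosen with earlier results of these data known. Counting and trend correction (lowess, span 0.3) were tested on simulated data. Alternatives were other probe set rules, level filters (none, percentile 75), centring, trend correction, quantile normalization, a 2-fold line and leaving out the most changed gene. List genes that were not found by symbol are not analysed here. The work used Python 3.11.15, pandas 2.3.3, statsmodels 0.14.6 and matplotlib 3.10.9.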

Additional observations from a re-analysis of the deposited data

How the results depend on the processing

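No paired analysis was possible because each genotype had 1 array, and leaving out an array was not possible for the same reason. The median of all members, 0.05, was -0.0032 with the level filter at percentile 75, -0.057 after centring and -0.048 after trend correction. The chaperone median, 0.04, was -0.067 after centring, -0.069 after trend correction and -0.023 without Sdf2l1. Trend correction gave 4 members past 1.5-fold lower in place of 2, adding Dnajb9 (-0.65) and Sel1l (-0.61), and 2 higher in place of 3, losing Creld2 (0.57), and the 2-fold line left 1 member higher in place of 3. Relative to the median of the pluripotent cell markers, a scaling chosen after seeing the data, medians were -0.63 for all members, -0.64 for chaperones, -0.81 for degradation genes, -0.56 for sensors, -0.84 for transcription factors and -0.18 for Atf4-type targets, with 1 member past 1.5-fold higher and 18 lower, which follows from subtracting the same amount from every gene. Among single members, centring and trend correction turned the sign of Pdia4, Atf6 and Xbp1, quantile normalization that of Calr, the mean of all probe sets that of Hsp90b1 and Hyou1, and leaving out _s_at and _x_at probe sets that of Canx (0.20) and Vldlr (-0.04). All of these except Vldlr differed by under 0.11 as deposited. The median of the Atf4-type targets lay between 0.40 and 0.56 under all other settings tried. Ern1 gave no value with the mean of all probe sets, nor did Eif2ak4, Stc2 and Vldlr with the filter at percentile 75, since they fell below the filter.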
